A study of Homo sapiens with 12 samples.

Results

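TXNIP, ARRDC3, ARRDC4, MLXIP and MLX were followed by symbol through the gene counts of a cell experiment on insulin and mutant PIK3CA. These 5 of the 60617 genes listed in each library all passed the filter on low counts (at least 1 count per library on average), which left 22756 genes for testing. TXNIP, ARRDC3 and ARRDC4 encode α-arrestins, adaptor proteins that bring ubiquitin ligases of the NEDD4 family to membrane proteins. TXNIP binds and inhibits thioredoxin and also promotes removal of the glucose transporter GLUT1 from the cell surface. MLXIP encodes MondoA and MLX encodes its partner. This pair of transcription factors enters the nucleus when phosphorylated glucose accumulates and binds carbohydrate response elements, of which those of TXNIP and ARRDC4 are the best known, so that the arrestins lie on a feedback loop on glucose uptake. Insulin signaling through PI3K and AKT is known to restrain FOXO factors and to raise glucose uptake, and both routes reach TXNIP.

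The cells sequenced were 12Z, a human line immortalized from ectopic endometriosis and labelled epithelial. Every culture received non-targeting siRNA and then, transiently, a pBabe plasmid carrying PIK3CA H1047R (H1047R cells) or the empty pBabe vector (control cells). PIK3CA encodes the p110α catalytic subunit of PI3K, and H1047R is an activating change. After 4 h without serum, cells were given 100 nM insulin or vehicle in serum-free medium for 24 h. The 4 groups were therefore H1047R insulin, H1047R vehicle, control insulin and control vehicle, with 3 libraries each from independent experiments. As a model, this is 1 cell line with a transfected, overexpressed mutant on top of the line's own PIK3CA.

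Libraries held 30071951 to 37918025 gene counts in H1047R insulin and 21483124 to 29255708 in the other groups. Levels are in CPM, gene counts relative to the library total after TMM scaling. The transfected gene was examined first, and its levels fit the labels in all libraries. PIK3CA was at 734, 714 and 715 CPM in H1047R insulin, 312, 180.1 and 215 CPM in H1047R vehicle, 81.0, 85.9 and 80.9 CPM in control insulin and 89.0, 88.2 and 88.6 CPM in control vehicle. H1047R insulin thus also held 3.06-fold more PIK3CA mRNA than H1047R vehicle (log2 fold change 1.62 ± 0.0839 SE, edgeR adjusted p = 5.33e-19), so insulin and the PIK3CA level cannot be told apart in H1047R cells. Epithelial markers KRT8, at 1359 to 1504 CPM, and KRT18, at 839 to 1122 CPM, were abundant, whereas EPCAM was at 0.379 to 1.06 CPM and CDH1 at 1.11 to 2.38 CPM. The 8 stromal markers summed to 5565 to 5797 CPM in H1047R insulin against 7525 to 7803 CPM in H1047R vehicle. With insulin in H1047R cells, 7 of 8 were called lower and 1 higher at an edgeR FDR below 0.001. Of all genes tested, 9.8% were called lower and 9.85% higher in that contrast. The 6 immune markers summed to at most 6.56 CPM (CD3E at 0 counts) and the 5 endothelial markers to at most 9.67 CPM. A shift in cell makeup and a change per cell cannot be told apart in bulk RNA, and their part in the results was not tested.

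The promoters were read first because TXNIP and ARRDC4 are textbook targets of the factors that MLXIP and MLX encode. The RefSeq windows on GRCh38.p14 run from 250 bases before to 50 bases after a transcript start, and all 5 genes matched with 7 windows. Both strands were searched for the E box (CACGTG), a direct form of the carbohydrate response element (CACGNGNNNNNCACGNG, the arrangement described for TXNIP), a degenerate form of it (CANGNGNNNNNCNCNTG), a FOXO core (TGTTTAC) and the NF-Y box (CCAAT). The windows of the 3 arrestin genes that hold one of the first 4 are printed 5′ to 3′ on the strand of the gene, with the direct form, the FOXO core and the E box in capitals. They are chr1:145996530-145996829 (minus strand) for TXNIP, chr5:91380048-91380347 (minus strand) for the downstream start of ARRDC3 and chr15:97960453-97960752 (plus strand) for ARRDC4.
TXNIP: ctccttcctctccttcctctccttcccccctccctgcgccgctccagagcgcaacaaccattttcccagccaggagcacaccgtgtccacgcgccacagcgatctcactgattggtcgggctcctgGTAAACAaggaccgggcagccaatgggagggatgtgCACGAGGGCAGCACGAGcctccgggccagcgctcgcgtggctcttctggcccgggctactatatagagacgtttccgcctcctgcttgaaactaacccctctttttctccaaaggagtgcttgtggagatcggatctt
ARRDC3: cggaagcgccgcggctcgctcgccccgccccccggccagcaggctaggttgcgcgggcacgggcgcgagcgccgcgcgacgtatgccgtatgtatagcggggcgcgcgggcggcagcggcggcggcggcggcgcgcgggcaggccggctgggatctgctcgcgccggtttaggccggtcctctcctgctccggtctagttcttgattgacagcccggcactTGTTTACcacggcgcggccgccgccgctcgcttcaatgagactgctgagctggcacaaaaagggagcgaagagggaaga
ARRDC4: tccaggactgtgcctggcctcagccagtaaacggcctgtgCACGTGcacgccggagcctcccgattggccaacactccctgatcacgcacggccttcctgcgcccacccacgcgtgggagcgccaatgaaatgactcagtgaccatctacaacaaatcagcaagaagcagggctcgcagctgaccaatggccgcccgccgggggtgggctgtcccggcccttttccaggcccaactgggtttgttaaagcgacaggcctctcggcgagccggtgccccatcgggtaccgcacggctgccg

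The TXNIP window held the direct form at bases -88 to -72 from the start, with the letters CACGAGGGCAGCACGAG. This form occurred in 20 of 35116 windows of the same length (0.057%). It was written from the arrangement described for TXNIP, so its presence there was fixed in advance and is no finding. The TXNIP window also held a FOXO core at -124 to -118, printed as its complement GTAAACA, and an NF-Y box on either side of that core. A FOXO core occurred in 3.42% of windows and an NF-Y box in 34.6%. The second TXNIP window, at a downstream start, held none of the 5 motifs. ARRDC3 carried a FOXO core at -29 to -23 from its downstream start and an NF-Y box in its upstream window. ARRDC4 carried an E box at -210 to -205 and 3 NF-Y boxes. The E box was also found at -50 to -45 in MLX and in 7.26% of all windows, and MLXIP held 1 NF-Y box. The degenerate form was in 0.564% of windows and in none of these 7. A match describes letters in a window and is neither a bound site nor a cause.

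**Figure D1:**
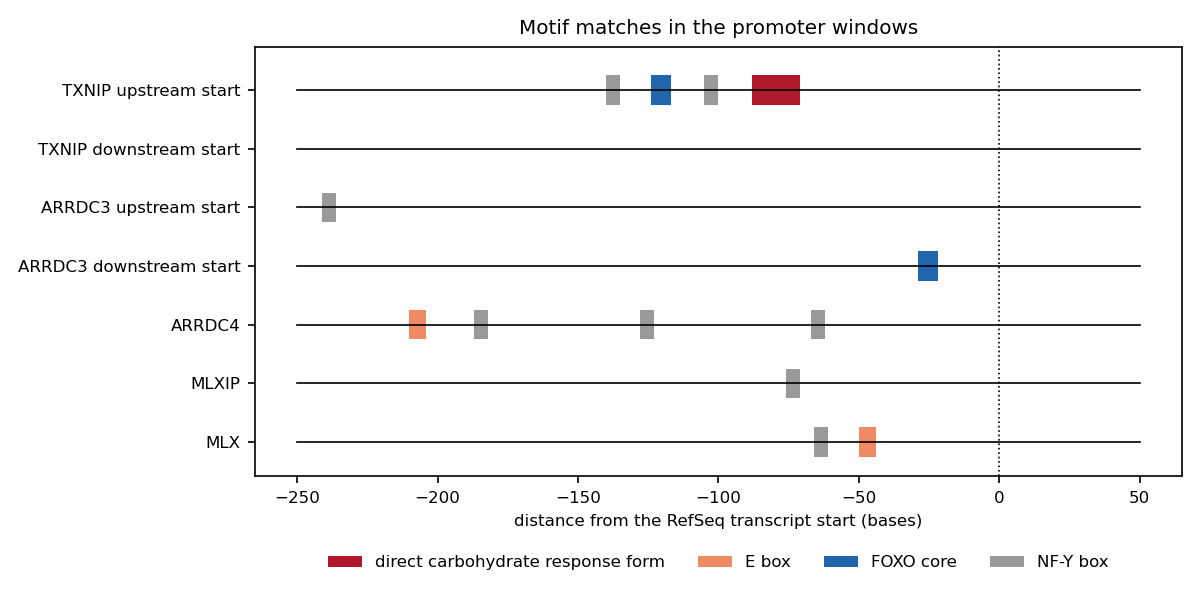
Positions of motif matches (colored blocks) in the 7 promoter windows of the 5 genes, drawn by distance in bases from the RefSeq transcript start (dotted line). The direct carbohydrate response form appears once, in the upstream TXNIP window at -88 to -72, and NF-Y boxes appear in windows of all 5 genes.

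Levels of different genes were compared per kb of exon. TXNIP was the most abundant of the 5 in every group, at 57.4 ± 1.15 CPM per kb in H1047R insulin, 34.1 ± 5.65 in H1047R vehicle, 28.3 ± 1.35 in control insulin and 29.0 ± 0.816 in control vehicle (SD, n = 3). MLX and then ARRDC3 followed in each group. ARRDC4 stood above MLXIP in H1047R insulin, at 4.45 against 2.83 CPM per kb, and below it in the other 3 groups, for example at 1.71 against 2.61 CPM per kb in control vehicle. The ranges of neighbors in this order did not overlap in any group, so each step was larger than the spread between libraries. Length here is that of all annotated exons of a gene together, 13868 bases for MLXIP (10 transcripts) and 4062 for ARRDC4 (1 transcript). The order, and the place of ARRDC4 against MLXIP, therefore also depends on which transcripts the cells make, which was not tested.

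**Figure D2:**
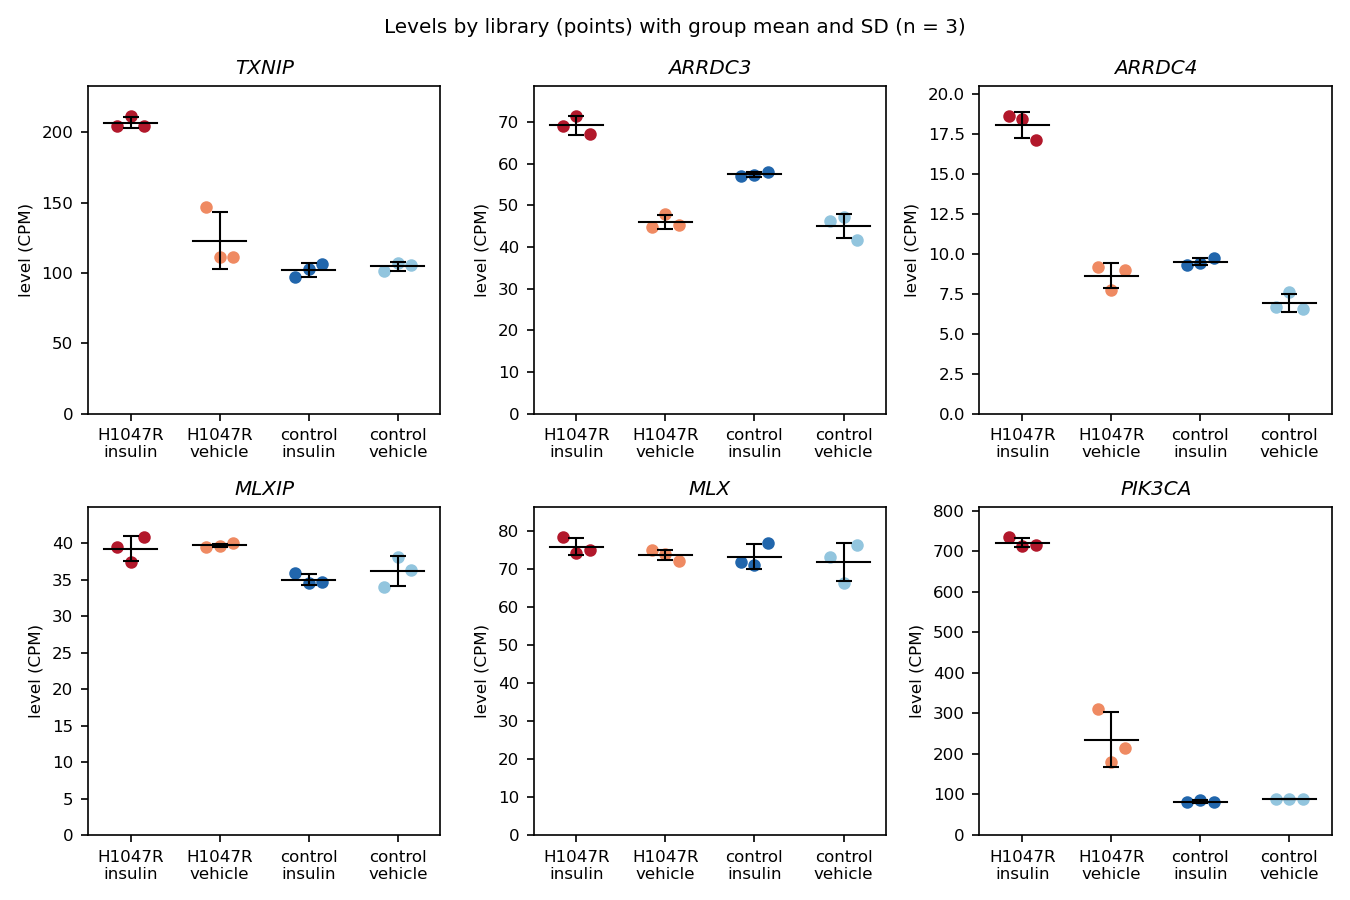
Levels in CPM (vertical axes from 0) of the 5 genes and PIK3CA by library (points) with group means and SD (lines and bars, n = 3). The highest TXNIP point outside H1047R insulin is at 147 CPM, against a lowest point of 204 CPM within it, while MLX spans 66.3 to 78.3 CPM over all groups.

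To determine how the 5 genes responded to insulin in each background, H1047R insulin was compared with H1047R vehicle, and control insulin with control vehicle. In H1047R cells all 3 arrestin genes rose, ARRDC4 the most, while neither MLXIP nor MLX passed the test. In control cells ARRDC3 alone passed. At a false discovery rate below 0.001 (edgeR), 3 of 5 were called higher in H1047R cells, where 19.6% of all genes tested were called, 9.85% higher and 9.8% lower. In control cells 1 of 5 was called higher, where 1.63% of all genes were called, 0.483% higher and 1.15% lower. The genes were proposed with earlier results of these data known, so these counts are descriptions.

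TXNIP (ENSG00000265972.6, chromosome 1, 145992435 to 145996579, minus strand, hg38) is the arrestin that binds thioredoxin. It was at 205, 212 and 204 CPM in H1047R insulin, against 147, 111.0 and 112 CPM in H1047R vehicle. All 3 insulin libraries lay above all 3 vehicle libraries, and replicate 1 stood above the other vehicle libraries. The rise was 1.68-fold (log2 fold change 0.75 ± 0.0586, 95% interval 0.62 to 0.89, edgeR adjusted p = 9.88e-14). In control cells, TXNIP was at 96.9, 103 and 107 CPM with insulin, against 101, 107 and 106 CPM with vehicle. Those groups overlapped, and the difference did not pass (log2 fold change -0.04 ± 0.0608, interval -0.18 to 0.10, edgeR adjusted p = 0.85). The difference between the 2 insulin effects was itself tested as an interaction and was 0.79 ± 0.0844 on the log2 scale (edgeR adjusted p = 1.61e-09), in a contrast where 9.07% of genes were called, 4.58% higher and 4.49% lower.

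ARRDC4 (ENSG00000140450.9, chromosome 15, 97960703 to 97973833, plus strand), an arrestin close to TXNIP in sequence and also known to lower glucose uptake, had the largest relative rise of the 5 in H1047R cells. It was at 18.6, 18.5 and 17.1 CPM in H1047R insulin, against 9.18, 7.75 and 8.99 CPM in H1047R vehicle, with no overlap. This was 2.09-fold (log2 fold change 1.06 ± 0.0819, interval 0.88 to 1.25, edgeR adjusted p = 6.48e-14). In control cells it was at 9.32, 9.45 and 9.74 CPM with insulin, against 6.66, 7.60 and 6.54 CPM with vehicle. The groups did not overlap, but the difference fell short of the threshold (log2 fold change 0.45 ± 0.0942, interval 0.23 to 0.67, edgeR adjusted p = 0.00148). The interaction passed at 0.62 ± 0.126 (edgeR adjusted p = 0.000254). It was lost without control vehicle replicate 2 (0.54, adjusted p = 0.0033) or H1047R vehicle replicate 2 (0.54, adjusted p = 0.00218).

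ARRDC3 (ENSG00000113369.9, chromosome 5, 91368631 to 91383317, minus strand) directs membrane proteins such as integrin β4 to ubiquitin ligases. It was at 69.1, 71.5 and 67.0 CPM in H1047R insulin, against 44.9, 47.9 and 45.4 CPM in H1047R vehicle. In control cells it was at 57.0, 57.3 and 58.0 CPM with insulin, against 46.1, 47.3 and 41.8 CPM with vehicle. Neither pair of groups overlapped. The log2 fold change was 0.59 ± 0.0497 in H1047R cells (edgeR adjusted p = 9.64e-13) and 0.35 ± 0.051 in control cells (edgeR adjusted p = 6.44e-06). The interaction did not pass (0.24 ± 0.0713, interval 0.08 to 0.40, edgeR adjusted p = 0.0116). A long noncoding gene on the opposite strand, ARRDC3-AS1, shares 2969 bases with ARRDC3 and held 21 to 51 counts per library, against 895 to 2599 for ARRDC3.

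MLXIP (ENSG00000175727.14, chromosome 12, 122078756 to 122147344, plus strand) was at 39.5, 37.4 and 40.8 CPM in H1047R insulin, against 39.5, 39.6 and 40.0 CPM in H1047R vehicle. It was at 35.9, 34.5 and 34.6 CPM in control insulin, against 34.0, 38.2 and 36.4 CPM in control vehicle. Both pairs overlapped, and the intervals of the log2 difference ran from -0.14 to 0.11 in H1047R cells and from -0.18 to 0.08 in control cells. MLX (ENSG00000108788.11, chromosome 17, 42567072 to 42573239, plus strand) was at 78.3, 74.2 and 75.0 CPM in H1047R insulin, against 74.9, 73.9 and 72.2 CPM in H1047R vehicle. With insulin, control cells held 71.7, 71.1 and 76.9 CPM, against 73.1, 66.3 and 76.2 CPM with vehicle. The intervals for MLX ran from -0.07 to 0.15 and from -0.08 to 0.14, so a change of either factor's mRNA as large as that of TXNIP in H1047R cells lay outside them. MLX overlaps PSMC3IP on the opposite strand by 930 bases, and calls for both factors were the same on counts taken without regard to strand.

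**Figure D3:**
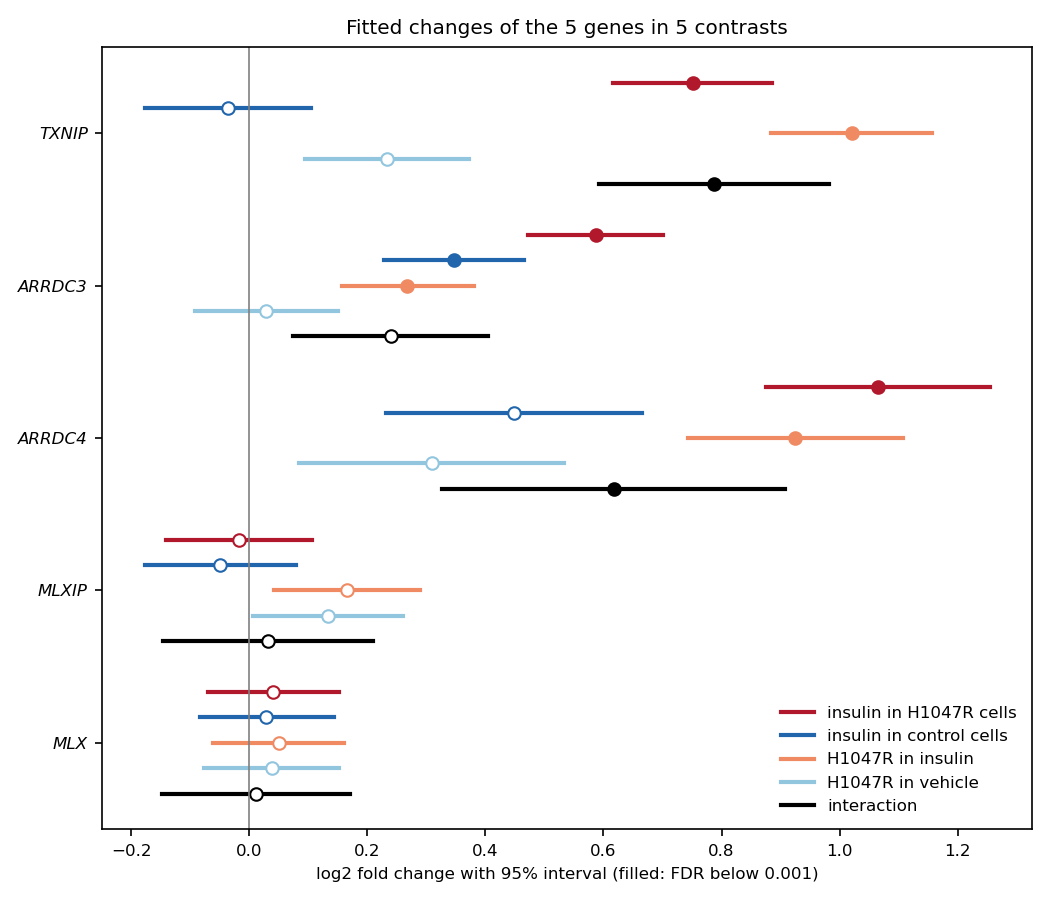
Log2 fold changes (horizontal axis) of the 5 genes in the 5 contrasts, with 95% intervals (bars); filled points passed an edgeR FDR below 0.001. The 3 arrestin genes rise with insulin in H1047R cells by 0.59 to 1.06, while all points of MLXIP and MLX are open.

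Next, H1047R cells were compared with control cells under each treatment. With insulin, TXNIP, ARRDC4 and ARRDC3 were all higher in H1047R cells (3 of 5 called higher, where 23.5% of all genes were called, 11.4% higher and 12% lower). With vehicle, 0 of 5 were called by edgeR and 0 of 5 by DESeq2, while 3 of 5 had an unadjusted edgeR p under 0.05. In that contrast 0.158% of all genes were called, 0.141% higher and 0.0176% lower. Of the 84 genes tested from all 9 lists of related genes, edgeR called 0, 26 had an unadjusted p under 0.05, and DESeq2 called 1, the GLUT1 gene SLC2A1. The share of all genes with an unadjusted p under 0.05 was not counted, so the counts at that cutoff have no background to be read against. These contrasts use the same libraries as the insulin contrasts, so they are not further evidence for them.

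Under insulin, TXNIP was 2.03-fold higher in H1047R cells, at 207 ± 4.16 CPM against 102 ± 4.88 CPM in control cells (SD, n = 3; log2 fold change 1.02 ± 0.059, edgeR adjusted p = 7.14e-18). ARRDC4 was 1.90-fold higher, at 18.1 ± 0.840 against 9.51 ± 0.213 CPM (0.93 ± 0.079, edgeR adjusted p = 8.5e-13). ARRDC3 was 1.20-fold higher, at 69.2 ± 2.25 against 57.5 ± 0.538 CPM (0.27 ± 0.0483, edgeR adjusted p = 1.4e-05). None of these 3 pairs of groups overlapped. MLXIP did not overlap either, at 39.2 ± 1.70 against 35.0 ± 0.755 CPM, but did not pass (0.17 ± 0.0534, edgeR adjusted p = 0.0115).

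Under vehicle, all 3 H1047R libraries lay above all 3 control libraries for TXNIP, ARRDC4 and MLXIP, and none of these passed. How many of all genes lack overlap was not counted under either treatment, so the lack of overlap alone shows no effect. TXNIP averaged 123 ± 20.4 CPM in H1047R vehicle and 105 ± 2.95 CPM in control vehicle (log2 fold change 0.23 ± 0.0606, edgeR adjusted p = 0.0424). Its spread came from H1047R vehicle replicate 1, the library with the highest PIK3CA of its group (312 CPM), and without it the difference was 0.085 on the log2 scale. The part of the PIK3CA level in this was not tested. ARRDC4 differed by 0.31 ± 0.0974 (edgeR adjusted p = 0.12), MLXIP by 0.13 ± 0.0554 (edgeR adjusted p = 0.294), ARRDC3 by 0.03 ± 0.0525 (edgeR adjusted p = 0.891) and MLX by 0.04 ± 0.0495 (edgeR adjusted p = 0.836).

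The remaining α-arrestins gave a mixed picture. ARRDC2, a less studied member of the family, was at 14.9, 15.1 and 15.2 CPM in H1047R insulin against 9.98, 11.5 and 11.1 CPM in control insulin, without overlap (log2 fold change 0.47 ± 0.0762, edgeR adjusted p = 2.57e-06). It was one of 4 called higher of 5 family members tested in that contrast, where 11.4% of all genes were higher. The family's median log2 fold change there was 0.47 and that of all genes -0.02. With insulin in H1047R cells, 4 of 5 were called higher again, where 9.85% of all genes were (median 0.59, all genes -0.000607). In both contrasts the calls besides ARRDC2 were TXNIP, ARRDC3 and ARRDC4, already counted above. ARRDC1, which recruits ligases to budding vesicles, was at 12.1 to 14.9 CPM in the 12 libraries and passed in no contrast. ARRDC5 was at 0 counts in all libraries, which allows up to 0.14 CPM in the shallowest, and was not tested.

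Transcripts known to respond to carbohydrate through MondoA or its relative ChREBP were examined next, and 17 of 20 were tested, TXNIP and ARRDC4 among them. With insulin, 7 were called higher and 2 lower in H1047R cells, where 9.85% of all genes were higher and 9.8% lower (median log2 fold change 0.28, all genes -0.000607). In control cells 3 were called, each of them higher, where 0.483% of all genes were (median 0.09, all genes 0.00374). Between H1047R insulin and control insulin, 6 were higher and 2 lower, where 11.4% and 12% of all genes were (median 0.14, all genes -0.0219). KLF10, a zinc-finger repressor induced by glucose in rodent hepatocytes, was at 77.2, 75.2 and 76.2 CPM in H1047R insulin against 35.4, 28.9 and 32.7 CPM in H1047R vehicle. The groups were far apart (log2 fold change 1.24 ± 0.057), and the rise was smaller in control cells (0.34 ± 0.0624), where the call was lost in 5 of 12 fits that left out 1 library. The interaction for KLF10 was 0.90 ± 0.0848. PFKFB3, which makes the activator of phosphofructokinase, was at 134, 130.0 and 134 CPM in H1047R insulin against 83.2, 62.2 and 62.8 CPM in H1047R vehicle (0.94 ± 0.062). ME1, malic enzyme, rose by 0.40 ± 0.0661 in control cells, where 2 of 12 fits that left out 1 library lost the call, and SCD, a fatty acid desaturase, rose by 0.23 ± 0.0321. In H1047R cells, enzymes of fatty acid synthesis went both ways with insulin. FASN (0.33), ME1 (0.28) and ACLY (0.26) were called higher, and ACACA (-0.26) and ELOVL6 (-0.20) lower, of which all but ME1 are named here after their values were seen. MLXIPL, which encodes ChREBP, averaged at most 0.623 CPM in any group and passed in no contrast.

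Glucose uptake and hexose phosphorylation, which set the signal that MondoA reads, held 15 tested genes. With insulin, 7 were called in H1047R cells (median log2 fold change 0.40, all genes -0.000607) and 4 in control cells (median 0.10, all genes 0.00374), each of them higher. Of all genes, 9.85% were called higher in H1047R cells and 0.483% in control cells. Between H1047R insulin and control insulin, 8 were higher and 2 lower, where 11.4% and 12% of all genes were (median 0.41, all genes -0.0219). SLC2A1 encodes GLUT1, the transporter that TXNIP removes from the surface, and was at 190, 188 and 186 CPM in H1047R insulin against 113, 95.9 and 97.6 CPM in H1047R vehicle (0.88 ± 0.0471). In control cells it was at 113, 107 and 117 CPM with insulin against 85.0, 83.1 and 87.1 CPM with vehicle (0.40 ± 0.0487). Neither pair overlapped, and the interaction was 0.48 ± 0.0677. HK2, the inducible hexokinase, was at 182, 175 and 182 CPM in H1047R insulin against 107, 83.3 and 85.3 CPM in H1047R vehicle (0.97 ± 0.0558), and rose by 0.40 ± 0.0582 in control cells. Unlike TXNIP, then, SLC2A1 and HK2 passed in both backgrounds; whether their responses in control cells differ from that of TXNIP was not tested. TIGAR, which lowers fructose-2,6-bisphosphate, rose by 0.96 ± 0.0921 in H1047R cells. SLC2A13, a proton myo-inositol transporter, had the largest change of the list in H1047R cells (2.08 ± 0.211) at a level of 4.15 to 5.16 CPM in H1047R insulin and 0.663 to 1.98 CPM in H1047R vehicle. GPI, which converts glucose-6-phosphate to fructose-6-phosphate, rose by 0.32 ± 0.0402 in control cells. It also rose by 0.40 ± 0.0399 in H1047R cells, a value given here after it was seen.

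**Figure D4:**
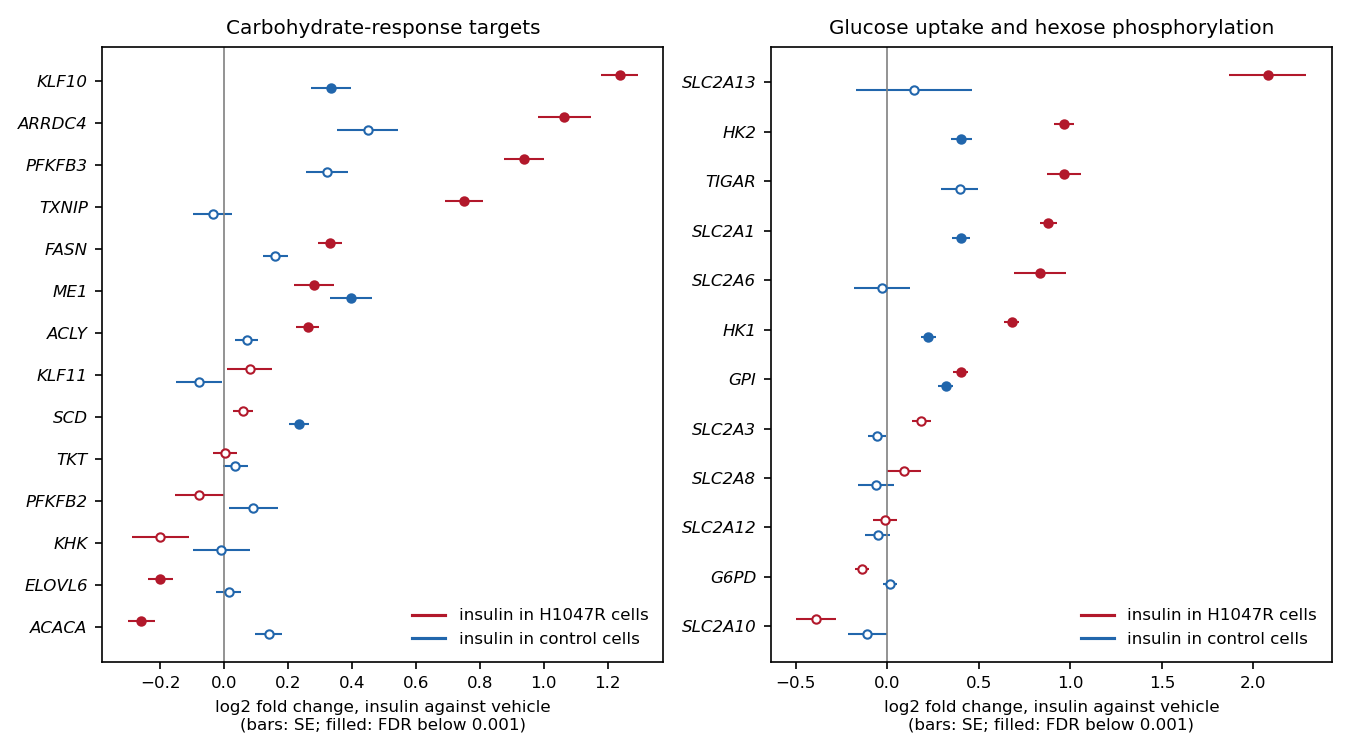
Log2 fold changes of insulin against vehicle (horizontal axes, bars are SE) in H1047R cells and control cells for carbohydrate-response targets and for 12 genes of glucose uptake and hexose phosphorylation, all averaging at least 1 CPM; filled points passed an edgeR FDR below 0.001. In H1047R cells TXNIP (0.75) lies with KLF10 (1.24), ARRDC4 (1.06) and PFKFB3 (0.94) toward the right, and in control cells TXNIP (-0.04) lies at the zero line.

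The network of MLX and MAX partners had 12 tested genes, MLXIP and MLX included. Of these, 2 were called higher and 4 lower with insulin in H1047R cells, where 9.85% of all genes were higher and 9.8% lower (median log2 fold change -0.03, all genes -0.000607). In control cells 1 was lower, where 1.15% of all genes were (median -0.04, all genes 0.00374). MYC, which competes for E boxes, was at 30.8, 31.8 and 32.0 CPM in control insulin against 40.6, 42.0 and 41.4 CPM in control vehicle, a fall that passed (-0.39 ± 0.0527). In H1047R cells it was at 47.4, 45.2 and 44.4 CPM with insulin against 46.2, 43.9 and 45.4 CPM with vehicle, which overlapped, and the interaction passed (0.41 ± 0.0724). Among the repressive MAX partners, MXD3 fell by 0.67 and MXD1 rose by 0.42 ± 0.073 with insulin in H1047R cells. MYCL fell by 0.52, but its call was lost in 3 of 12 fits that left out 1 library and in 3 of 8 other settings.

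In the thioredoxin system, the redox partner of TXNIP, each gene called was lower. With insulin in H1047R cells 4 of 10 were called, where 9.8% of all genes were lower (median log2 fold change -0.17, all genes -0.000607). Between H1047R insulin and control insulin 6 of 10 were called, where 12% of all genes were lower (median -0.19, all genes -0.0219). TXNRD1, the cytosolic thioredoxin reductase, was at 590, 592 and 578 CPM in H1047R insulin against 692, 738 and 758 CPM in H1047R vehicle (-0.31 ± 0.0356). It also fell in control cells (-0.19 ± 0.0356). That call was lost in 5 of 12 fits that left out 1 library and in 1 of 8 other settings. PRDX5, a peroxiredoxin, fell by 0.42 with insulin in H1047R cells, and PRDX3, the mitochondrial one, was lower in H1047R insulin than in control insulin (-0.40 ± 0.0415). TXN, the thioredoxin that TXNIP binds, named here after its values were seen, was at 315 to 386 CPM in all libraries and passed in no contrast.

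Of the NEDD4-family ligases that α-arrestins recruit, 9 were tested. With insulin, 2 were called higher in H1047R cells, where 9.85% of all genes were (median log2 fold change 0.07, all genes -0.000607), and 1 was lower in control cells, where 1.15% of all genes were (median -0.01, all genes 0.00374). Between H1047R insulin and control insulin, 4 were higher, where 11.4% of all genes were (median 0.21, all genes -0.0219), and 3 were higher in the interaction, where 4.58% of all genes were. SMURF1, a regulator of TGF-β and BMP receptors, rose by 0.35 ± 0.0459 and NEDD4L, which acts on the epithelial sodium channel, by 0.19 ± 0.0441 in H1047R cells, with the NEDD4L call lost in 5 of 12 fits that left out 1 library. SMURF2 fell by 0.24 in control cells, a call lost in 4 of 12 such fits, and was higher in H1047R insulin than in control insulin (0.26 ± 0.042). ITCH and NEDD4 were called in no contrast.

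Among 8 proteins reported as arrestin cargo, 2 were called higher and 3 lower with insulin in H1047R cells, where 9.85% of all genes were higher and 9.8% lower (median log2 fold change -0.55, all genes -0.000607). In control cells 1 was higher and 3 lower, where 0.483% and 1.15% of all genes were (median -0.22, all genes 0.00374). ITGB4, integrin β4 and a target of ARRDC3, fell by 0.71 in H1047R cells and by 0.39 in control cells. INSR, the insulin receptor, fell by 0.34 in control cells, a call lost in 3 of 12 fits that left out 1 library. In H1047R cells, given here after the values were seen, INSR averaged 21.95 ± 0.808 CPM with insulin and 32.81 ± 1.38 CPM with vehicle (SD, n = 3). F2R, a thrombin receptor, was lower in H1047R insulin than in control insulin (-0.45 ± 0.0449). The kinases AKT and AMPK phosphorylate TXNIP, and of 9 of their subunits 2 were called higher and 1 lower with insulin in H1047R cells, where 9.85% and 9.8% of all genes were (median -0.09, all genes -0.000607). AKT1 and AKT2 passed in no contrast, and the AMPK subunit PRKAB1 was higher in H1047R insulin than in control insulin (0.42 ± 0.0544). POLR3GL, the gene next to TXNIP on the opposite strand, differed by -0.26 ± 0.108 with insulin in H1047R cells, which did not pass. It was lower in H1047R insulin than in control insulin (-0.46 ± 0.104). That call was lost in 5 of 12 fits that left out 1 library and in 1 of 8 other settings. It was the only call among the 3 tested neighbors and antisense genes of the arrestins in any contrast.

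The genes whose pattern was most like each arrestin were sought by Pearson r of log2 CPM over the 12 libraries among 10783 genes averaging at least 5 CPM. The libraries fall into 4 groups of 3, so any gene that stands apart in H1047R insulin scores high, and r was over 0.9 with TXNIP for 10.8% of genes, with ARRDC4 for 8.42% and with ARRDC3 for 1.93%. The closest to TXNIP was IGFBP6, which binds insulin-like growth factor II (r = 0.995), followed by the interferon-induced genes IFIT3, IFIT2 and DDX60, the factor IRF1 and ZNFX1 (r = 0.99). IGFBP6 averaged 167 ± 5.98 CPM in H1047R insulin, 75.8 ± 19.8 in H1047R vehicle, 51.8 ± 2.45 in control insulin and 54.0 ± 1.03 in control vehicle (SD, n = 3). The closest to ARRDC4 was INA, an intermediate filament gene (r = 0.996), then the hexokinase HK1, the tRNA synthetases GARS1 and TARS1, the growth factor VEGFA and the phosphofructokinase PFKP (r = 0.987). The closest to ARRDC3 was RPP40, a subunit of ribonuclease P (r = 0.979), then GRSF1, NAA15, the chaperones DNAJC3 and HSPA4, and DDIT4, an inhibitor of mTORC1 signaling (r = 0.963). Of these 3 sets of 6 genes, 0 genes were shared. Sets this small, taken from 10783 genes, can share none even where the patterns are alike. Over the 12 libraries, r was 0.91 between TXNIP and ARRDC4, 0.91 between ARRDC3 and ARRDC4 and 0.7 between TXNIP and ARRDC3. With PIK3CA, r was 0.96 for TXNIP, 0.86 for ARRDC4 and 0.6 for ARRDC3. The part of the PIK3CA level in these patterns was not tested.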

How the data were processed

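RNA-seq libraries were made with a strand-keeping mRNA kit from 500 ng of total RNA. The methods and the submitters' processing notes name cutadapt and Trim Galore for trimming, FastQC, and STAR with hg38 for alignment and counting. What the authors deposited are raw counts per gene from STAR, which leave out reads placed at several sites. The tools' versions were not given in the sources used here. For annotation the methods name a mouse release although the identifiers in the files are human, which leaves the human release unknown. Multiply placed reads made up 8.48 to 9.51% of reads in H1047R insulin and 13.6 to 15.4% in the other groups.

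Reverse-strand counts were used, which held 93.5 to 93.7% of strand-specific counts. Of 60617 gene identifiers, 60357 were matched to a table of names. Genes with a mean of at least 1 count were fitted with edgeR 4.0.16 in R 4.3.3 (TMM scaling, quasi-likelihood test, 12 libraries, 1 coefficient per group, 8 residual degrees of freedom), with Benjamini-Hochberg adjustment over all 22756 genes and a threshold of 0.001. SE is the log2 fold change over the square root of F. Intervals use 8 degrees of freedom and may be wide. Replicates differed by more than counting noise. Exon lengths and coordinates came from an hg38 annotation. The fit was tested on simulated data.

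Members, 9 gene lists and marker lists were chosen with earlier results of these data known. Named genes were the 5 members and PIK3CA, up to 3 called genes of each list and contrast with the largest absolute change among those averaging at least 1 CPM (up to 2 of the most abundant where none was called), and the 6 genes most like each arrestin. Alternatives were DESeq2 1.42.0 and its size factors, library totals, 2 other filters, counts without regard to strand, only the compared groups, a replicate block and leaving out each library. RSAD2 knockdown samples and a comparison of the protein sequences are not analysed here, and some genes that the rule takes are not reported here.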

Additional observations from a re-analysis of the deposited data

Results flagged for a closer look

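The insulin response differed between H1047R cells and control cells, by a test of the difference itself (the edgeR interaction, H1047R minus control), for 20 of 84 genes tested from the lists, where 9.07% of all genes were called. The naming rule takes the members and up to 3 called genes of a list, so the 18 given here were chosen for their calls. The insulin response was larger in H1047R cells by 0.79 on the log2 scale for TXNIP and 0.62 for ARRDC4. Among related genes the interaction was 1.94 for SLC2A13, 0.90 for KLF10, 0.62 for PFKFB3, 0.56 for HK2 and 0.51 for MXD1. It was 0.48 for SLC2A1, 0.35 for SMURF1 and 0.33 for NEDD4L. It was also positive for MYC (0.41) and SMURF2 (0.29), which were called lower with insulin in control cells (-0.389 and -0.235). Neither MYC nor SMURF2 passed with insulin in H1047R cells (0.017 and 0.054). The interaction was -0.38 for PRDX3, -0.36 for MXD4, -0.34 for F2R, -0.33 for PRDX5, -0.32 for ITGB4 and -0.28 for PRDX2. Of 12 fits that left out 1 library, the call was lost in 8 for MXD1, 6 for ITGB4, 5 for PRDX2, 5 for SMURF2, 3 for SLC2A13, 2 for PRDX5 and 2 for ARRDC4. In 7 other settings, the calls of ITGB4 and PRDX2 were each lost in 2. All 18 share the H1047R insulin libraries, which also held the most PIK3CA mRNA, and the part of the PIK3CA level was not tested.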

How the results depend on the processing

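TXNIP kept its call with insulin in H1047R cells (0.68 to 0.92 on the log2 scale), for H1047R in insulin and for the interaction in every alternative run, as did ARRDC3 with insulin in both backgrounds and ARRDC4 with insulin in H1047R cells. Without a filter on low counts, TXNIP for H1047R in vehicle (0.23, edgeR adjusted p = 0.000121) and ARRDC4 for insulin in control cells (0.45, edgeR adjusted p = 0.000573) passed. ARRDC4 for insulin in control cells ranged from 0.41 to 0.53 when 1 library was left out, and passed without H1047R vehicle replicate 1 (edgeR adjusted p = 0.000611). The ARRDC4 interaction ranged from 0.54 to 0.69. MLXIP passed for H1047R in insulin when only those groups were fitted (0.20, edgeR adjusted p = 0.000929). Its uncalled difference with insulin in H1047R cells turned to 0.016 with library totals and 0.012 without a filter. Leaving out 1 library turned the sign of other differences that did not pass: ARRDC3 for H1047R in vehicle (-0.02 to 0.065), MLXIP with insulin in H1047R cells (-0.047 to 0.017) and its interaction (-0.01 to 0.076), and MLX with insulin in control cells (-0.027 to 0.071), for H1047R in vehicle (-0.019 to 0.08) and its interaction (-0.03 to 0.068).

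Of all genes, 36 were called for H1047R in vehicle, against 22 with DESeq2, 152 without a filter, 6 with at least 1 CPM in 3 libraries and 14 to 100 when 1 library was left out. For insulin in control cells, 372 were called, and 233 without control insulin replicate 2 (233 to 521 over all such fits). Alternative values were also compared for PIK3CA, named genes of the lists, list counts and counts of all genes called higher or lower. Of these, 3187 stayed the same, 91 gene values lost the call and 145 counts moved. For a gene, the same means that direction and call were kept. For a count, it means only that it stayed near the main count. The 3187 were not split between genes and counts. Fits of only the compared groups could not give an interaction.

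Libraries with the same replicate number did not deviate together (r from -0.06 to 0.09 in 18 pairs, and 3 of 12 libraries were closest to their own number). With a replicate block, the TXNIP interaction was 0.79 and that of ARRDC4 0.62, and 53 genes were called for H1047R in vehicle and 366 for insulin in control cells; no call of the 5 genes changed.

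Depth limits the low genes most: ARRDC4 held 140 to 671 counts per library, and TXNIP 2261 to 7884.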
